A study of Mus musculus with 19 samples.

Results

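The microRNAs (miRNAs) bound to Ago2 in Camk2a cells of the mouse neocortex were compared with those bound to Ago2 in the whole neocortex, in 6 of the 19 libraries of the study. The 3 Camk2a libraries and the 3 Neocortex libraries were chosen by the column names of the deposited table, not by any measured value, and all 528 miRNA names of that table were examined. Both groups came from neocortex at postnatal day 56, on a mixed C57BL/6 and BALB/c background, with 1 tissue per library. They differed in the antibody. Anti-Myc (sc-40) was used for Camk2a, where the Camk2a driver, active in excitatory neurons, directs Myc-tagged Ago2 to the cells of interest. Anti-Ago2 (Abnova) was used for Neocortex and takes Ago2 of any cell. Antibody and cell population change together between the groups, so their effects cannot be told apart. The labels give neither the alleles nor whether the Neocortex tissue also carried tagged Ago2, and do not say that replicates came from separate animals. p-values then measure only the spread between these libraries. The 3 Gad2 libraries used for a later comparison were also made with anti-Myc, from neocortex of the same age on a C57BL/6 and 129 background, with 4 tissues pooled in each.

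A miRNA is cut by Dicer from a hairpin as a short duplex, of which 1 strand is usually kept by an Argonaute protein such as Ago2 and the other, marked here with an asterisk, is mostly lost. The loaded strand finds mRNAs mainly through its seed, bases 2 to 8 from its 5′ end, and lowers their translation and stability, so miRNAs with 1 seed form a family with overlapping targets. Excitatory (pyramidal) neurons are the most numerous neurons of the neocortex, which also holds inhibitory neurons, glia, vessels and blood. Levels below are RPM, reads per 1000000 miRNA reads of the library. They are relative, and in bulk material fewer cells of a type and less RNA per cell cannot be told apart.

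The mature sequences below carry the main differences: families whose members moved together, families whose members moved apart, and hairpins whose strands shifted. They come from RefSeq (GRCm38.p6), which held 353 of the 528 names (66.9%), and capitals mark the seed. In the first 3 families, at least 1 member was lower in Camk2a.
let-7a: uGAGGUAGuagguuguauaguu
let-7c: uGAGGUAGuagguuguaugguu
miR-99a: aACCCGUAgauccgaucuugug
miR-100: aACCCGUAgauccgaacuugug
miR-99b: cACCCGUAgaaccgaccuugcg
miR-181a: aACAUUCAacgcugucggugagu
miR-181c: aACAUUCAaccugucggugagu
miR-181b: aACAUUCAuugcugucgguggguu
In the next 3 families, the summed level was higher in Camk2a.
miR-16: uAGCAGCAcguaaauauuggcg
miR-15b: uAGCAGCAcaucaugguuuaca
miR-322: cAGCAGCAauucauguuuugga
miR-132: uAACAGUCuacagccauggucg
miR-212-3p: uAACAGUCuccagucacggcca
miR-27a: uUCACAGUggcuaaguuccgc
miR-27b: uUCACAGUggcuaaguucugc
The others are single miRNAs with a large share or a large change, and both strands of the miR-9 and miR-431 hairpins.
miR-128: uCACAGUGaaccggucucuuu
miR-129-5p: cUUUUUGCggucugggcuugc
miR-34a: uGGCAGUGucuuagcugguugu
miR-24: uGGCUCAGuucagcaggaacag
miR-23a: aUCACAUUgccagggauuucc
miR-130a: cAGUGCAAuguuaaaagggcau
miR-338-3p: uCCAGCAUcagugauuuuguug
miR-9: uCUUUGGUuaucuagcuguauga
miR-9*: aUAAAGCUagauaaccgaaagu
miR-431: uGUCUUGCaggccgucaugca
miR-431*: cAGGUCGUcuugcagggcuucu

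Some family members are nearly alike in sequence. Counted from the 5′ end, miR-99a and miR-100 differ by 1 of 22 bases (U16A), miR-27a and miR-27b by 1 of 21 (C19U), and let-7a and let-7c by 1 of 22 (A19G). Nothing in the labels or the table tells how reads that fit several names were assigned, so values of such pairs are uncertain. miR-16 and miR-15b differ by 8 bases, and miR-132 and miR-212-3p by 5.

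Depth was 10309027 to 12824712 miRNA reads in the Camk2a libraries and 2149027 to 10798553 in the Neocortex libraries, where replicate 1 was the shallowest. A count of 3 reads, the upper limit that a count of 0 allows, stood at 0.234 to 0.291 RPM in Camk2a and 0.278 to 1.396 RPM in Neocortex; such floors cover counting error only. The 10 most abundant miRNAs took 62.7% to 71.0% of the reads of a library. No mRNA was measured, so the cell type was checked against the miRNA markers alone. The 15 names of the neuron list, including miR-124, miR-9 and miR-128, summed to 446000 to 466200 RPM in Camk2a and 345200 to 422100 RPM in Neocortex. Much of that difference lay in miR-128, with means of 153500 RPM in Camk2a and 78480 RPM in Neocortex. The list is of neurons in general, with no names set apart for excitatory or inhibitory neurons. Its sum in the Gad2 libraries was 363800 to 407400 RPM, below Camk2a and overlapping Neocortex. The sum alone thus does not identify excitatory neurons.

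Of 522 miRNAs tested with limma, 234 differed between the groups at an adjusted p under 0.05, or 44.8%. Of these, 88 (16.9% of those tested) were higher in Camk2a and 146 (28.0%) were lower. Counts of called list members below are to be read against these shares. The 15 highest and 15 lowest names were picked only where the libraries of the groups did not overlap. For these names the lack of overlap follows from that choice and adds nothing to the call. For other names it was not a condition, but its share among all tested is not given here. The median log2 change of all tested was -0.25. With TMM factors, which rescale each library to its typical miRNA, the median was -0.04 and 118 were higher and 114 lower of 232 called. The share of higher calls was thus 37.6% with the deposited scale and 50.9% with TMM factors. A small decrease below should be read against that shift, and single miRNAs below that lost a decrease with TMM factors are given with that value.

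**Figure D1:**
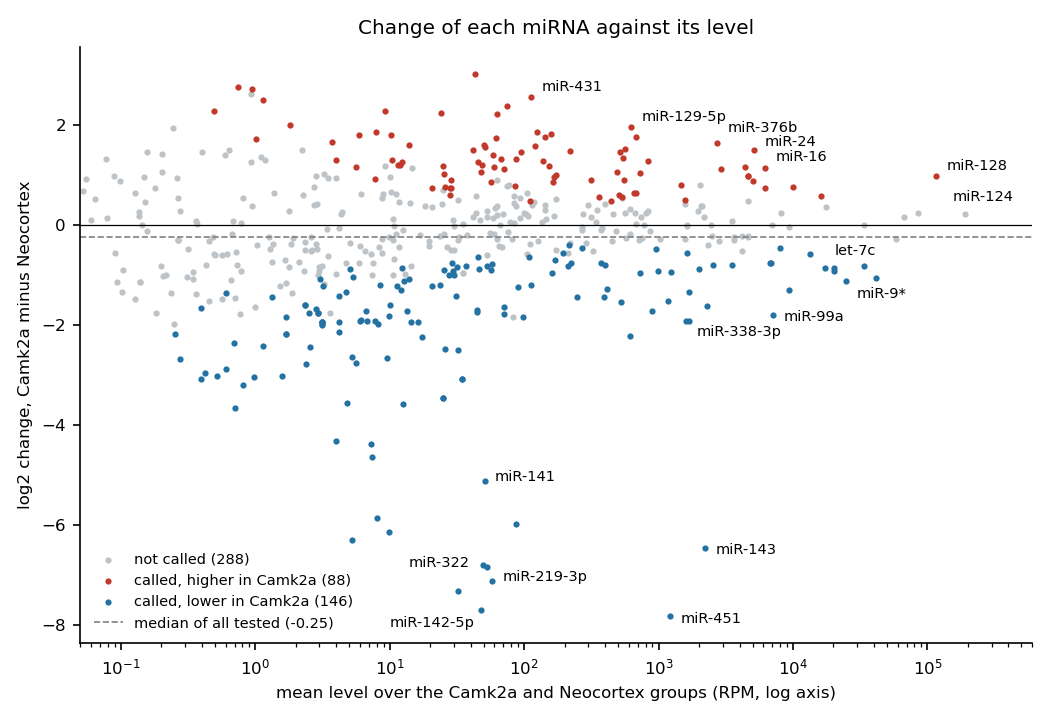
Each point is 1 of the 522 miRNAs tested, with its mean level over both groups in RPM on a log axis and its log2 change (Camk2a minus Neocortex) on the vertical axis. Colour gives the call and the dashed line the median of -0.25. The lowest point is miR-451 at -7.82, far further from 0 than the highest, miR-335-3p at 3.01.

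Among miRNAs known for neuronal expression, miR-128 had the largest gain in reads. It restrains neuronal excitability and is encoded by Mir128-1 in an intron of R3hdm1 (chr1:128202361-128202430, plus strand, GRCm38.p6) and Mir128-2 in an intron of Arpp21 (chr9:112118636-112118711, minus strand). It stood at 170500, 146700 and 143200 RPM in Camk2a replicates 1 to 3 and at 80890, 89150 and 65400 RPM in Neocortex. The groups did not overlap, and the rise was 1.97-fold (log2 0.97, SE 0.19, adjusted p = 0.000417). It took 15.4% of the miRNA reads in Camk2a and 7.85% in Neocortex.

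miR-132 and miR-212-3p share a seed, are induced by neuronal activity through CREB, and lie on the plus strand of chromosome 11 in an intron of 1700016P03Rik (Mir132 at chr11:75173682-75173747, Mir212 at chr11:75173388-75173478). miR-132 was at 686.2, 615.1 and 842.9 RPM in Camk2a and 386.2, 361.6 and 399.6 RPM in Neocortex, a 1.85-fold rise (adjusted p = 0.0023). miR-212-3p was at 232.7, 216.1 and 296.6 RPM against 71.7, 71.7 and 67.6 RPM, a 3.5-fold rise (adjusted p = 6.21e-05). Every Camk2a library lay above every Neocortex library for both. The passenger strand miR-132*, the more abundant strand of this hairpin here, did not pass the test, with 2022 to 2739 RPM in Camk2a and 1434 to 2503 RPM in Neocortex (adjusted p = 0.627). The miR-132 and miR-212 list held 2 higher and 0 lower of 4, with a median log2 change of 0.64.

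miR-129-5p, which acts in the scaling of synapses, rose from 198.2, 241.6 and 351.0 RPM in Neocortex to 916.5, 1095 and 959.5 RPM in Camk2a (3.85-fold, log2 1.95, SE 0.21, adjusted p = 2.97e-07). miR-218, encoded in introns of Slit2 and Slit3, rose 2.24-fold, from 2124 to 3027 RPM up to 5576 to 6714 RPM (adjusted p = 7.85e-05). miR-138, which limits the growth of dendritic spines, was 1.66-fold higher (adjusted p = 0.0163), but this call was lost without Camk2a replicate 2 (0.062), without Camk2a replicate 3 (0.0878) and without Neocortex replicate 2 (0.0894).

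Not all neuronal miRNAs rose. The neuron list held 5 higher and 6 lower of 15, with a median of -0.13, close to that of all tested. miR-124, the most abundant miRNA in both groups, was at 184200, 224100 and 205400 RPM in Camk2a and 167100, 218400 and 145600 RPM in Neocortex; the groups overlapped and the test was not passed (log2 0.22, adjusted p = 0.26), although it was called without Neocortex replicate 2 (0.0428) and by edgeR on reads (0.00775). miR-137 fell 1.70-fold, from 6888 to 12290 RPM down to 4469 to 5579 RPM (adjusted p = 0.0112). That call was lost with TMM factors (0.0941), without Camk2a replicate 2 (0.0561) and without Neocortex replicate 1 (0.0851). miR-135a, linked to axon growth, was at 103.9 to 149.9 RPM in Camk2a against 224.8 to 466.1 RPM (2.73-fold lower, adjusted p = 0.00675). miR-153 was 1.75-fold lower (adjusted p = 0.00452), but not called in the fit of the 6 libraries alone (0.0511) or by edgeR on reads (0.0715). miR-124* was 1.95-fold lower (adjusted p = 0.000605). The other lower names of the list were miR-9* and miR-384-5p, given below. The remaining 4, with miR-124 among them, were not called.

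**Figure D2:**
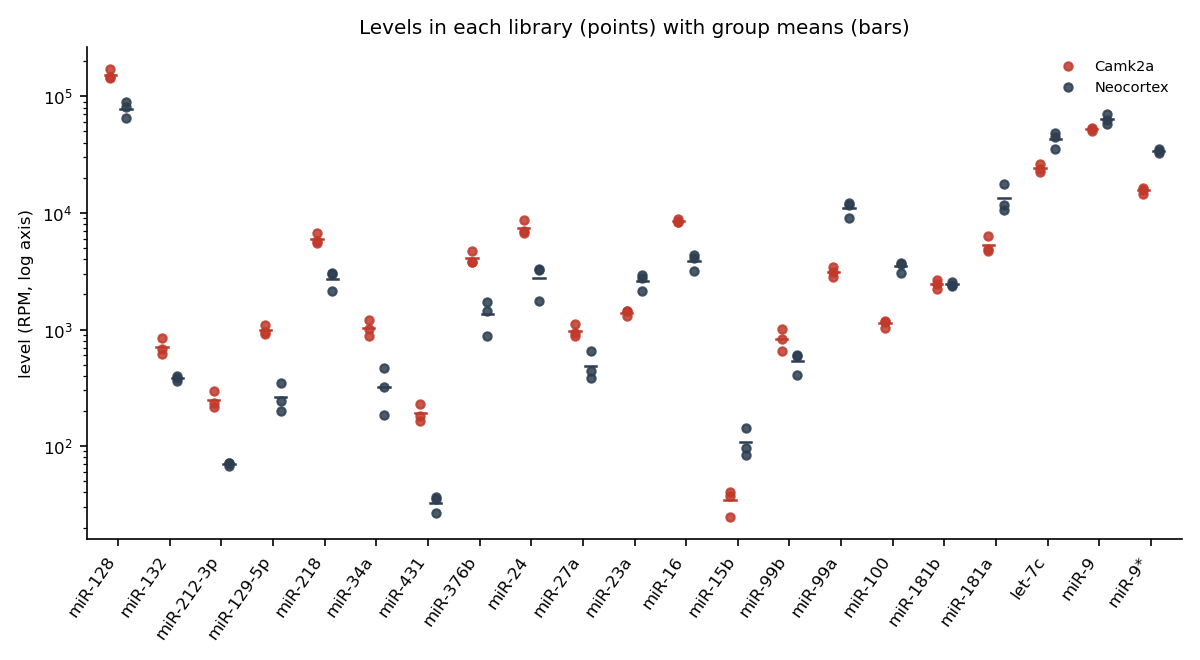
Points give the level of 21 miRNAs in each of the 3 Camk2a and 3 Neocortex libraries, in RPM on a log axis, and bars the group means. Camk2a points lie above for miR-128, miR-132, miR-212-3p and miR-24, and below for miR-99a, miR-181a and miR-9*, while those of miR-181b overlap.

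miR-34a, a target of p53 that also acts in neuronal maturation, was at 886.9, 1008 and 1208 RPM in Camk2a and 323.4, 183.3 and 466.5 RPM in Neocortex. The groups did not overlap and the rise was 3.39-fold (adjusted p = 1.09e-05). Of the other 5 names of its list, 3 were not called. miR-34b-5p was at 2.72 to 3.97 RPM against 4.88 to 7.87 RPM (adjusted p = 0.0211), a call lost without Camk2a replicate 1 (0.0972), Neocortex replicate 1 (0.062) or Neocortex replicate 3 (0.0854). miR-34c* overlapped at 0.156 to 0.568 RPM against 0.465 to 1.30 RPM (adjusted p = 0.0453), and was lost without Camk2a replicate 1 or 2 or Neocortex replicate 2 or 3 (0.111 to 0.166). The miR-34 list held 1 higher and 2 lower of 6, near the 16.9% and 28.0% among all tested, with a median of -0.35. Neither of these decreases was called with TMM factors. miR-339-5p, which has been linked to axon guidance in neurons, was at 211.1, 193.6 and 251.7 RPM against 92.6, 75.9 and 37.7 RPM (3.38-fold, adjusted p = 0.000177). miR-361, from an intron of Chm, rose 2.43-fold, from 395.3 to 609.6 RPM up to 868.0 to 1358 RPM (adjusted p = 2.44e-05).

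Neighbours on 1 primary transcript did not always move alike. Mir23a, Mir27a and Mir24-2 lie side by side on the plus strand of chromosome 8, in an intergenic stretch (chr8:84208518-84208921). miR-24 rose from 3286, 1744 and 3233 RPM in Neocortex to 6708, 7033 and 8765 RPM in Camk2a (2.82-fold, log2 1.49, SE 0.20, adjusted p = 5.78e-06). miR-27a rose 2.03-fold, from 381.6 to 648.7 RPM up to 880.3 to 1116 RPM (adjusted p = 0.00654). miR-23a went the other way, from 2126, 2786 and 2927 RPM in Neocortex to 1435, 1318 and 1430 RPM in Camk2a (1.86-fold lower, adjusted p = 0.00753). None of the 3 overlapped between the groups. miR-24 has another hairpin, Mir24-1, on chromosome 13 beside Mir23b and Mir27b, so its reads cannot be assigned to either place. miR-27b was 1.82-fold higher (adjusted p = 0.000516), and miR-23b, 1.32-fold lower, did not pass the test (adjusted p = 0.185). The list of miR-23, miR-24 and miR-27 held 3 higher and 3 lower of 11, with a median of -0.58. Among all tested, 16.9% were higher and 28.0% lower. The rarer strand miR-27b* was among the lower ones, and lost its call with TMM factors (0.0751) and without Camk2a replicate 1 or 3 or Neocortex replicate 1 or 3 (0.0518 to 0.0965).

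miR-16 and miR-15b also moved apart, and both have a hairpin in Smc4, a condensin gene. Mir15b (chr3:69009772-69009835) and Mir16-2 (chr3:69009902-69009996) share 1 of its introns on the plus strand, and Mir16-1 lies in an exon of Dleu2 on chromosome 14. The 2 hairpins of miR-16 give the same mature sequence, so its reads cannot be assigned to Smc4 or to Dleu2. miR-15b and miR-16 brake the cell cycle. miR-16 was at 8867, 8288 and 8318 RPM in Camk2a and 3187, 4088 and 4377 RPM in Neocortex, a 2.2-fold rise without overlap (adjusted p = 0.000334). miR-15b was at 40.6, 24.6 and 37.5 RPM against 84.7, 143.2 and 96.6 RPM, 3.14-fold lower without overlap (adjusted p = 0.000248). miR-15a, the partner of Mir16-1, did not pass the test (log2 -0.30, adjusted p = 0.306). Both strands of miR-322 were far lower. They come from a hairpin on the X chromosome (chrX:53054255-53054349, minus strand). miR-322 was at 1.36, 0.312 and 1.04 RPM in Camk2a and 81.9, 98.6 and 113.8 RPM in Neocortex (log2 -6.79, SE 0.58, adjusted p = 1.32e-08), and its other strand, miR-322*, fell by 7.31 on the log2 scale (adjusted p = 3.99e-09). The list of the miR-15 and miR-16 family held 1 higher and 5 lower of 12, with a median of -0.40.

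The imprinted Dlk1-Dio3 domain on chromosome 12 holds large groups of miRNAs that are expressed from the maternal allele and are abundant in neurons. In its first stretch, from Meg3 past the transcript antisense to Rtl1 into Rian, 9 of 27 were higher and 0 lower, with a median of 0.55. The hairpins of miR-341 and miR-370 lie in introns of Rian. miR-431 (chr12:109590447-109590537, plus strand) had the largest rise there, at 163.9, 230.7 and 180.7 RPM in Camk2a and 26.5, 34.9 and 36.7 RPM in Neocortex (5.85-fold, log2 2.55, SE 0.21, adjusted p = 7.08e-09). miR-370 rose 2.78-fold, miR-341 2.87-fold and miR-665 2.49-fold (adjusted p = 8.42e-05, 0.00162 and 1.91e-05), and miR-433 rose 1.74-fold (adjusted p = 0.00149). The summed level of this stretch hardly differed, with 15620 to 16950 RPM in Camk2a and 14550 to 17630 RPM in Neocortex.

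In the second stretch, from miR-379 to miR-410, 23 of 64 were higher and 6 lower, with a median of 0.42. Its summed level was 54590 to 67510 RPM in Camk2a and 36760 to 42980 RPM in Neocortex, without overlap. miR-376b (chr12:109723458-109723539, plus strand) was at 3781, 4692 and 3808 RPM against 886.0, 1735 and 1438 RPM (3.13-fold, adjusted p = 7.75e-06). miR-485* rose 3.60-fold, miR-543 4.73-fold, miR-412-3p 3.63-fold, miR-380-3p 2.96-fold and miR-410 2.76-fold, each without overlap (adjusted p = 8.03e-06, 4.45e-05, 0.00117, 7.89e-06 and 5.83e-06). miR-154* rose 2.51-fold and miR-134, which limits dendritic spine size, 2.42-fold (adjusted p = 5.62e-05 and 0.000222). miR-300 rose 1.95-fold, from 2999 to 3274 RPM up to 5950 to 6345 RPM (adjusted p = 1.60e-05).

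miR-376a, the most abundant name of this stretch named here, was at 18340, 23640 and 16130 RPM against 13460, 14600 and 10870 RPM, 1.49-fold higher (adjusted p = 0.019). That call was lost without Camk2a replicate 2 (0.111), without Neocortex replicate 3 (0.0866) and in the fit of the 6 libraries alone (0.0527). miR-541 stood against the trend, at 309.4, 461.7 and 488.9 RPM in Camk2a and 1198, 1407 and 1519 RPM in Neocortex (3.32-fold lower, adjusted p = 5.64e-07). It was the largest decrease among the members with at least 10 RPM of this stretch. miR-376c was 1.41-fold lower (adjusted p = 0.0404) and miR-376b* 2.3-fold lower (0.0211), but neither with TMM factors (0.325 and 0.0574). Without 1 library, miR-376c was called only without Neocortex replicate 1 (otherwise 0.0697 to 0.134), and miR-376b* was lost without Camk2a replicate 1 or 3 or Neocortex replicate 2 or 3 (0.0649 to 0.0948). With TMM factors 27 of the 64 were higher and 1 lower, and 12 of 27 in the first stretch were higher and 0 lower.

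miRNAs that mark other cell types were compared list by list. For oligodendrocytes, 4 of 4 list members were lower, with a median of -2.75, and their summed level was 666.4 to 799.3 RPM in Camk2a against 2155 to 3401 RPM in Neocortex. miR-338-3p, which promotes oligodendrocyte maturation and lies in an intron of Aatk, was at 614.4, 616.5 and 743.3 RPM against 3139, 1934 and 2577 RPM (3.81-fold lower, adjusted p = 1.40e-08). miR-219-3p was at 0.679, 1.09 and 0.473 RPM against 122.8, 85.4 and 136.6 RPM (log2 -7.12, SE 0.45, adjusted p = 2.33e-10), and miR-219-5p fell by 3.57 on the log2 scale (adjusted p = 5.90e-08). miR-338-5p was 2.38-fold lower (adjusted p = 3.09e-05). The 2 markers of this lineage thus left different amounts in Camk2a, with miR-338-3p far above the 3-read floor and miR-219-3p close to it.

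For vessels, miR-143 of mural and smooth muscle cells, the only member of its list here, was at 45.9, 58.3 and 45.2 RPM in Camk2a and 4428, 4694 and 3984 RPM in Neocortex, an 88.0-fold difference (log2 -6.46, SE 0.17, adjusted p = 2.33e-17). The endothelial miR-126-3p was at 662.8, 722.4 and 681.9 RPM against 2288, 2366 and 3313 RPM, 3.80-fold lower (adjusted p = 4.99e-09). Its other strand miR-126-5p was 4.65-fold lower (adjusted p = 1.01e-06). Both endothelial names were lower, with a median of -2.08, and their summed level was 875.5 to 947.3 RPM in Camk2a against 3147 to 4194 RPM in Neocortex.

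For blood, miR-451, which is matured by Ago2 itself without Dicer, was at 12.4, 9.05 and 8.61 RPM in Camk2a and 1432, 2208 and 3652 RPM in Neocortex (log2 -7.82, SE 0.29, adjusted p = 1.86e-14). miR-144 of the same transcript was at 0.568 to 1.09 RPM against 79.6 to 138.1 RPM (adjusted p = 1.32e-08). The erythroid list held 4 lower and 2 higher of 7, with a median of -2.18, and a summed level of 75.5 to 87.3 RPM against 1563 to 3790 RPM. The 2 higher were miR-486 and miR-3107, whose values are almost the same in every library, at 36.7, 32.5 and 37.1 RPM against 24.2, 19.5 and 20.0 RPM for miR-486 (1.67-fold, adjusted p = 0.0211). That rise lost its call without Camk2a replicate 1 or 3 or Neocortex replicate 2 or 3, at adjusted p = 0.0577 to 0.0613 for miR-486.

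For leukocytes and microglia, 4 of 7 were lower and 0 higher, with a median of -5.86, and the summed level was 38.7 to 39.9 RPM in Camk2a against 405.3 to 460.7 RPM. miR-142-5p was at 0.194, 0.390 and 0.568 RPM against 83.8, 107.4 and 96.2 RPM (adjusted p = 3.41e-07). miR-142-3p was at 0.078 to 0.485 RPM against 14.9 to 26.8 RPM, miR-223 at 0.078 to 0.291 RPM against 14.0 to 18.2 RPM, and miR-150 at 1.95 to 3.30 RPM against 147.3 to 205.2 RPM (adjusted p = 4.17e-05, 3.79e-08 and 7.58e-10). miR-146a, an inflammatory regulator, made up most of what this list had in Camk2a, at 34.4, 37.4 and 35.5 RPM against 129.8, 115.2 and 145.2 RPM. Its groups did not overlap, but the fit that shares its spread with all 19 libraries did not call it (log2 -1.85, SE 0.79, adjusted p = 0.0629), while the fit of the 6 libraries alone did (0.000242).

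For astrocytes, whose list was less specific, 3 of 6 were lower and 1 higher, with a median of -0.92. The lower were miR-21, at 664.3 to 994.3 RPM against 1214 to 2151 RPM (adjusted p = 0.00434), its other strand and miR-23a, and the higher was miR-27a. For the choroid plexus and ependyma, 3 of 6 were lower and 0 higher, with a median of -0.67, and 1 was lower with TMM factors. Their summed levels overlapped, at 73.1 to 99.4 RPM in Camk2a and 97.4 to 124.8 RPM in Neocortex. miR-204, the more abundant strand of its hairpin, did not pass the test and overlapped, at 72.7, 50.4 and 78.9 RPM in Camk2a and 57.2, 50.3 and 67.6 RPM in Neocortex (log2 0.19, adjusted p = 0.618). Its rarer strand miR-204* was at 5.86 to 6.00 RPM against 25.2 to 30.7 RPM (adjusted p = 0.00026).

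**Figure D3:**
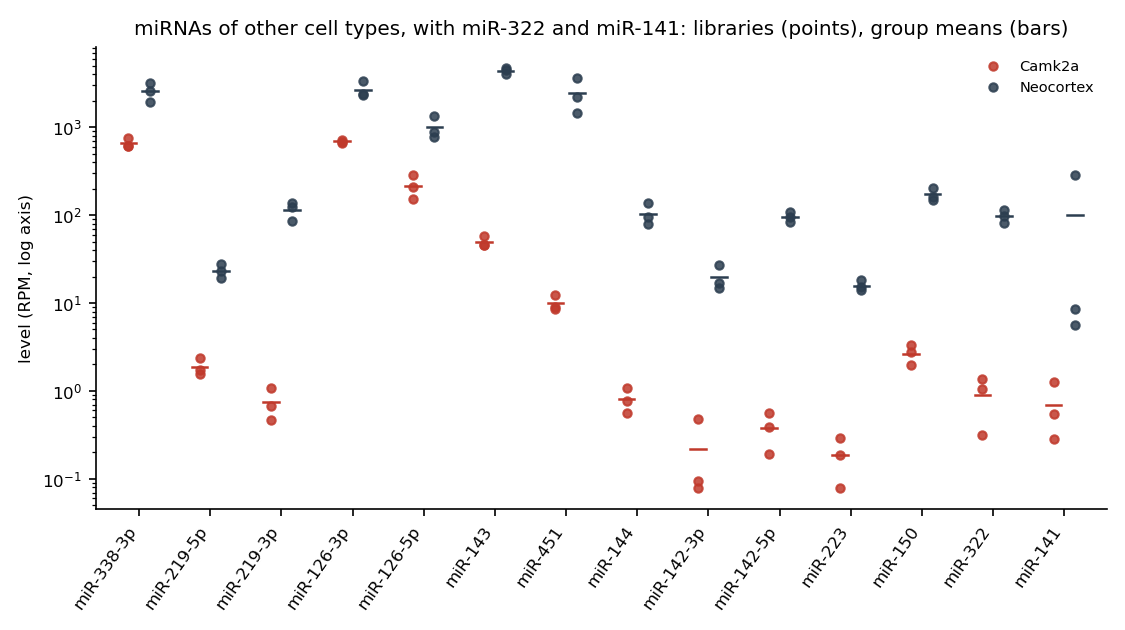
Points give the level of 14 miRNAs in each of the 3 Camk2a and 3 Neocortex libraries, in RPM on a log axis, and bars the group means. The names were picked and leave out list members that were called higher (miR-486, miR-3107, miR-27a) or overlapped (miR-204). Among the names shown, all Camk2a points lie below all Neocortex points. For miR-141 a single Neocortex library at 288.4 RPM stands far above the other libraries.

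Of the 47 names of the Sfmbt2 cluster, a family of repeat-derived miRNAs in an intron of an imprinted gene, 24 were lower and 0 higher. Their median was -1.64, and 28.0% of all tested were called lower. Their summed level was 65.1 to 86.6 RPM in Camk2a and 272.7 to 422.6 RPM in Neocortex. Some of these names hold identical values, as do miR-669a-3p and miR-669o-3p, at 3.88, 3.43 and 4.35 RPM against 25.1, 58.1 and 55.2 RPM (adjusted p = 1.01e-06). Such names were each counted, so the 24, the 47, the median and the sum repeat their values. miR-669c was 5.59-fold lower and miR-669a-5p 3.97-fold lower (adjusted p = 1.34e-05 and 0.000334).

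The epithelial miR-141 and its other strand made up the miR-200 list, both lower. miR-141 was at 1.26, 0.546 and 0.284 RPM in Camk2a and 5.58, 288.4 and 8.52 RPM in Neocortex, so Neocortex replicate 2 decided its level. Its log2 change was -5.12 (SE 1.05, adjusted p = 0.000521), and -3.33 without Neocortex replicate 2 (0.00219), -6.16 without Neocortex replicate 1 (0.000157) and -5.86 without Neocortex replicate 3 (0.00055). miR-182, the only member of the miR-183 cluster in the table, a sensory cell group, was at 0.388 to 0.662 RPM against 6.05, 17.8 and 3.43 RPM (log2 -3.55, adjusted p = 0.00517; -2.91 and 0.0311 without Neocortex replicate 2). The same Neocortex library was highest for both.

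The miR-17 clusters, known for cell proliferation, held 5 lower and 1 higher of 16, with a median of -0.52, and 2 lower and 1 higher with TMM factors. The 5 of 16 lower is near the 28.0% called lower among all tested, and the summed levels overlapped, at 772.0 to 1120 RPM in Camk2a and 796.9 to 1163 RPM in Neocortex. miR-18a was at 13.8 to 21.0 RPM against 34.5 to 38.3 RPM (adjusted p = 0.0107), and its call was lost without Camk2a replicate 1 (0.0663). The calls of miR-17*, miR-19b and miR-20a, at log2 changes of -0.85, -1 and -0.83, were lost with TMM factors (0.109, 0.0999 and 0.081). Without 1 library, miR-19b was called in no fit (0.0658 to 0.133), miR-17* only without Neocortex replicate 1 (otherwise 0.0576 to 0.107), and miR-20a only without Camk2a replicate 3 or Neocortex replicate 2 (otherwise 0.0834 to 0.114). The higher one, miR-106b*, lost its call without any Camk2a replicate and without Neocortex replicate 2 or 3 (adjusted p = 0.0721 to 0.157).

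The let-7 miRNAs, kept low in dividing precursors and high in mature cells, held 11 lower and 2 higher of 21 with miR-98, with a median of -0.82 and 8 lower and 3 higher with TMM factors. let-7c was at 22460, 26170 and 23940 RPM in Camk2a and 48120, 35610 and 45060 RPM in Neocortex, 1.76-fold lower (adjusted p = 0.000521). let-7a was 1.82-fold, let-7f 1.89-fold, let-7g 1.83-fold and miR-98 1.96-fold lower (adjusted p = 0.000336, 0.000198, 0.0003 and 0.000177), each without overlap. The 2 higher were rare strands, let-7d* and let-7i*. let-7i did not pass the test, at 6443 to 7708 RPM against 6304 to 8257 RPM (adjusted p = 0.964). let-7b and let-7d were called lower (adjusted p = 0.0176 and 0.0452) but not with TMM factors (0.236 and 0.30) or in the fit of the 6 libraries alone (0.0668 and 0.114). The call of let-7b was also lost without Camk2a replicate 1 or 3 or Neocortex replicate 1 (0.056 to 0.124), and that of let-7d without Camk2a replicate 1 or 3 or Neocortex replicate 2 or 3 (0.0594 to 0.249).

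In the miR-181 family, 5 of 10 were lower and 0 higher, with a median of -1.16. miR-181a was at 4900, 4743 and 6290 RPM in Camk2a and 10660, 11770 and 17690 RPM in Neocortex (2.48-fold lower, adjusted p = 1.17e-05), and miR-181c was 2.53-fold lower (adjusted p = 1.48e-05). miR-181b, whose hairpins follow those of miR-181a on chromosomes 1 and 2, was at 2482, 2220 and 2663 RPM against 2420, 2383 and 2553 RPM, a log2 change of 0.00 (SE 0.14, adjusted p = 0.999). The rarer strands miR-181a-1* and miR-181a-2* were lower too (log2 -1.84 and -4.64, adjusted p = 8.03e-06 and 2.82e-07). miR-181c* was 1.56-fold lower (adjusted p = 0.0102), but not with TMM factors (0.164).

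Of miR-99, miR-100 and miR-125, 4 of 11 were lower and 2 higher, with a median of 0.06. Among all tested, 28.0% were lower and 16.9% higher. miR-99a, in an intron of Mir99ahg (chr16:77598936-77599000, plus strand), was at 3137, 3464 and 2838 RPM in Camk2a and 11810, 12190 and 9074 RPM in Neocortex (3.49-fold lower, adjusted p = 2.36e-08). miR-100 (chr9:41531425-41531504, plus strand) was at 1153, 1189 and 1038 RPM against 3749, 3641 and 3034 RPM (3.08-fold lower, adjusted p = 4.99e-09). miR-99b, with the same seed, was higher at 1011, 658.7 and 821.5 RPM against 599.8, 590.0 and 410.0 RPM (1.56-fold, adjusted p = 0.0082), a call lost without Camk2a replicate 1 (0.0616), without Neocortex replicate 3 (0.0573) and in the fit of the 6 libraries alone (0.0554). Thus 2 members of this seed fell and 1 rose. miR-100* and miR-125b-1-3p, both rare, were lower (adjusted p = 0.021 and 0.000221), the first neither with TMM factors (0.061) nor without Camk2a replicate 1 or 3 or Neocortex replicate 2 or 3 (0.0559 to 0.0946).

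Among other abundant names, miR-22 was at 25330, 28290 and 27290 RPM in Camk2a and 49360, 53480 and 66550 RPM in Neocortex (2.08-fold lower, adjusted p = 3.78e-05). miR-130a, known in vessels and blood, was at 274.7, 219.7 and 304.9 RPM against 953.9, 670.0 and 709.9 RPM (2.91-fold lower, adjusted p = 4.21e-06). miR-26b was 2.90-fold lower (adjusted p = 2.99e-05), while miR-26a, with the same seed, was at 38760, 25980 and 35780 RPM against 39740, 23200 and 39480 RPM (log2 0.00, adjusted p = 0.992). miR-425 and miR-500 were 2.43-fold and 2.71-fold lower (adjusted p = 1.34e-05 and 2.43e-07). The guide strands miR-29a, miR-29b and miR-29c, which target collagens, did not pass the test (adjusted p = 0.432, 0.246 and 0.0944), and 1 of the 7 names of that list, miR-29a*, was lower (1.74-fold, adjusted p = 0.00256). The list's median was 0.24, and miR-29c was called higher with TMM factors (0.0149) and without Neocortex replicate 2 (0.023). On reads, edgeR called miR-29a, miR-29b and miR-29c higher, and DESeq2 called miR-29b and miR-29c higher. Whether these guide strands were called thus depended on the scaling and the test.

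The miR-30 family held 4 lower and 0 higher of 12, with a median of -0.39. That is near the 28.0% called lower among all tested, and the summed levels overlapped, at 12010 to 18220 RPM in Camk2a and 12650 to 26660 RPM in Neocortex. Its called members were the rare strands miR-30b*, miR-30c-1* and miR-30c-2* and the neuronal miR-384-5p, whose groups overlapped at 696.2, 437.4 and 831.3 RPM against 1156, 742.3 and 2056 RPM (adjusted p = 0.00937; 0.0842 without Camk2a replicate 2, 0.0806 without Neocortex replicate 3 and 0.101 in the fit of the 6 libraries alone). miR-30c-1* lost its call without Camk2a replicate 1 (0.0833), and miR-30b* without Camk2a replicate 1 or 3 or Neocortex replicate 1 or 3 (0.0504 to 0.0919) and with TMM factors (0.0627). miR-221 and miR-222, which promote proliferation, were not called (adjusted p = 0.0839 and 0.537), although miR-221 was at 3065, 2447 and 2199 RPM against 1396, 1309 and 1706 RPM without overlap and was called with TMM factors (0.0283). The rare strand miR-221* was lower, making 0 higher and 1 lower of 4, with a median of 0.34. That call (adjusted p = 0.0355) held without Neocortex replicate 1 but in no other fit that left out 1 library (0.0705 to 0.133).

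Only the 353 names with a RefSeq sequence could be grouped by seed, so a family below can lack members and its sum can be incomplete. Summing those that share a seed gave 288 families. Of these, 129 (44.8%) differed between the groups, 61 (21.2%) higher and 68 (23.6%) lower in Camk2a. With TMM factors, 79 were higher and 48 lower. Many families hold a single name, and for these the sum repeats the value above. The 9 names with the let-7 seed took 93990 RPM in Camk2a and 160100 RPM in Neocortex (log2 -0.76, adjusted p = 0.000377). The seed of miR-99a, miR-99b and miR-100 summed to 5301, 5312 and 4697 RPM against 16150, 16420 and 12520 RPM (2.93-fold lower, adjusted p = 1.77e-08). The 4 names with the miR-181 seed were lower by a log2 change of -1.03, and the 3 with the miR-130 and miR-301 seed were 2.53-fold lower (adjusted p = 6.49e-06). The seed shared by miR-181a-1* and miR-181c* was 2.24-fold lower (adjusted p = 2.39e-05).

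Of the families that rose, miR-34a with miR-34b-5p was 3.33-fold higher (adjusted p = 9.39e-06) and miR-132 with miR-212-3p had a log2 change of 1.08. The family of miR-16 summed to a mean of 9165 RPM against 4882 RPM (log2 0.92), although 2 of the 4 members summed fell. miR-16 supplied most of the summed reads. miR-27a with miR-27b had a log2 change of 0.89. The largest families of more than 1 name that did not pass the test were those of miR-29 (182400 RPM against 157800 RPM) and of miR-26 (34100 RPM against 35910 RPM). That of miR-29 was called higher with relative log expression factors, another rescaling of the libraries.

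**Figure D4:**
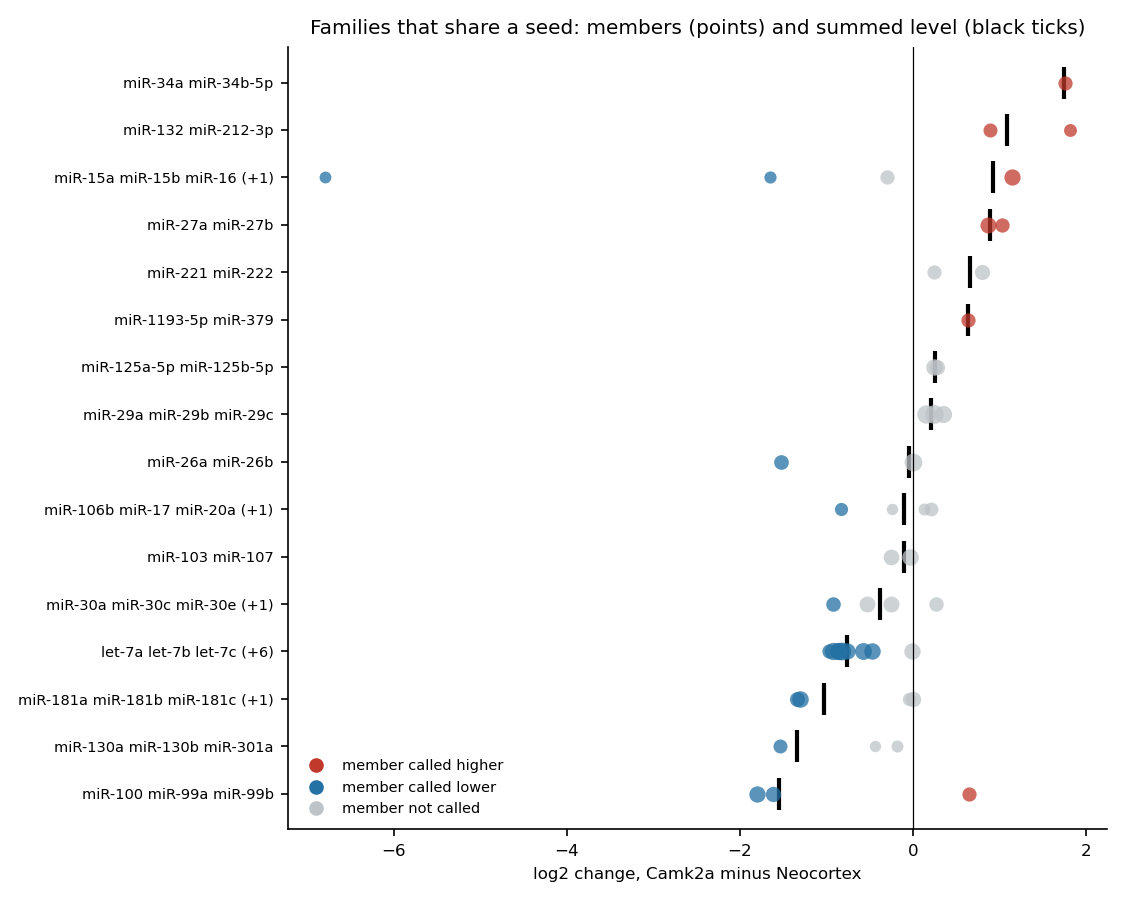
Each line is 1 of the 16 seed families with more than 1 name and a mean summed level of at least 500 RPM. Only names with a RefSeq sequence are included. The black tick is the log2 change (Camk2a minus Neocortex) of the summed level and points are members with at least 10 RPM, larger where more abundant and coloured by their call. In the family of miR-15a, miR-15b and miR-16 the tick lies at 0.92 beside miR-16, with miR-322 far to the left.

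Within a hairpin, the ratio of its strands does not depend on how libraries are scaled. Of 131 hairpins with both strands named and enough reads, the ratio of the rarer to the more abundant strand differed for 50 (38.2%), with the rarer strand taking more in Camk2a for 21 (16.0%) and less for 29 (22.1%). For miR-376b, the rarer strand miR-376b* took 0.332%, 0.374% and 0.305% of the hairpin's reads in Camk2a and 2.16%, 2.43% and 2.55% in Neocortex (log2 ratio -2.85, SE 0.26, adjusted p = 0.00063). The libraries of each group lay close together and far from the other group. For miR-431 the more abundant strand changed, since miR-431* held 27%, 23.6% and 27.6% of reads in Camk2a and 72.7%, 56.9% and 55.5% in Neocortex (adjusted p = 0.0041). miR-431* itself did not pass the test for its level (adjusted p = 0.272), although edgeR on reads called it higher. The level of miR-431 rose.

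The same exchange of the leading strand was seen for miR-212, where miR-212-5p held 35.1%, 45.1% and 36.2% in Camk2a and 52.6%, 61.4% and 73.2% in Neocortex (adjusted p = 0.0329), and for the hairpin of miR-485, where miR-485 held 28.7%, 35.9% and 34.5% against 57.3%, 54.7% and 57.8% (adjusted p = 0.00759). The ratio of miR-485 was called in every fit that left out 1 library. That of miR-212 was called without Neocortex replicate 1 (0.00934) but in none of the other 5 (0.0514 to 0.118). miR-9 drives neuronal differentiation together with its other strand. Each of these strands comes from 3 hairpins, which cannot be told apart, so their ratio pools them. miR-9* held 23.5%, 21.9% and 23.7% of the reads in Camk2a and 34.9%, 36.0% and 33.5% in Neocortex (adjusted p = 0.0427). This too was called without Neocortex replicate 1 (0.042) but in none of the other 5 fits that left out 1 library (0.0587 to 0.119). The level of miR-9* was 2.18-fold lower in Camk2a, at 16430, 14680 and 15720 RPM against 33680, 32790 and 35710 RPM (adjusted p = 6.19e-07). That of miR-9 did not pass the test (adjusted p = 0.0978), although its groups did not overlap.

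Other ratios with less of the rarer strand in Camk2a were those of miR-486 (1.59% against 11.7%), miR-204 (8.37% against 33.1%), miR-221 (0.220% against 1.56%) and miR-7b (1.13% against 6.56%), with adjusted p = 0.00167 for miR-486 and 0.0024 for miR-204. That of miR-7b was lost without Camk2a replicate 2 (0.0621) and without Camk2a replicate 3 (0.0776). The rarer strand took more in Camk2a for miR-335, encoded in an intron of the imprinted gene Mest, where miR-335-3p held 3.38%, 2.44% and 2.77% against 0.144%, 0.382% and 0.427% (9.93-fold in the ratio, adjusted p = 0.0024). Its level rose from 3.72, 12.2 and 15.6 RPM to 93.9, 46.9 and 86.3 RPM (log2 3.01, adjusted p = 0.000109; 2.39 without Neocortex replicate 1), while miR-335-5p did not pass the test (adjusted p = 0.209). The strand named miR-543 held 37.8% against 11.4%, miR-412-3p 31.5% against 6.90% and miR-532-3p 9.14% against 2.60%. miR-135b* held 1.13% against 0.101% and miR-98* 0.281% against 0.0527%, and both calls were lost with a pseudocount of 5 reads (0.133 and 0.102). The number of ratios called fell to 21, 22 and 14 without Camk2a replicate 1, 2 and 3, and to 30 and 28 without Neocortex replicate 2 and 3.

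**Figure D5:**
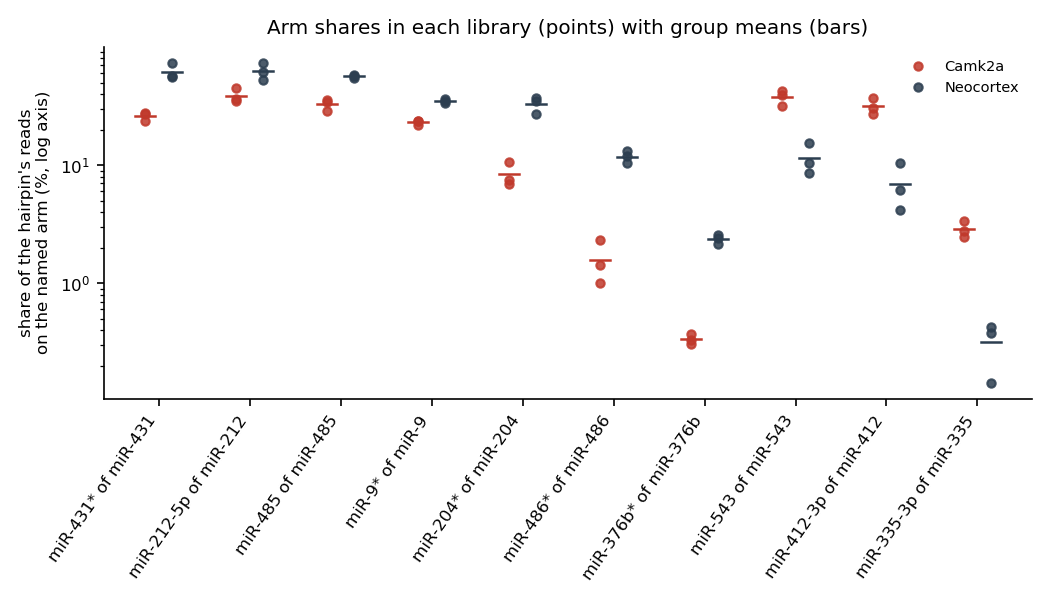
Points give the share of a hairpin's reads on the named strand, in percent on a log axis, in each of the 3 Camk2a and 3 Neocortex libraries, and bars the group means. The share is lower in Camk2a for the 7 hairpins on the left, from miR-431 to miR-376b, and higher for miR-543, miR-412 and miR-335. The entry of miR-9 pools its 3 hairpins.

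The Gad2 libraries, from inhibitory neurons by the same antibody, give the same miRNAs in another neuron class taken with anti-Myc. Both neuron groups were set against the same 3 Neocortex libraries, so the values are given side by side and the difference is tested between Camk2a and Gad2 directly, where 199 of 522 (38.1%) were called. miR-451, miR-143 and miR-338-3p were also low in Gad2, at means of 11.8, 39.2 and 662.1 RPM, and their differences from Camk2a were not called (adjusted p = 0.664, 0.112 and 0.963). miR-126-3p was lower in Gad2 than in Camk2a, at 228.6 ± 18.7 RPM (SD, n = 3) against 689.0 ± 30.4 RPM (log2 1.59, limma adjusted p = 9.18e-08).

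Of the higher miRNAs, miR-431, miR-376b, miR-485* and miR-361 did not pass the test between Camk2a and Gad2 (adjusted p = 0.0511, 0.203, 0.856 and 0.637). miR-128 separated the classes most among those named, with 153500 ± 14820 RPM in Camk2a and 9122 ± 3497 RPM in Gad2 (SD, n = 3 each; log2 4.13, limma adjusted p = 2.54e-12). miR-129-5p, miR-218, miR-24 and miR-16 had means of 330.5, 2094, 2683 and 4050 RPM in Gad2, not called against Neocortex (adjusted p = 0.225, 0.114, 0.972 and 0.85), and were higher in Camk2a than in Gad2 (log2 1.63, 1.55, 1.48 and 1.08, adjusted p = 3.03e-06, 2.56e-06, 5.31e-06 and 0.0006). miR-34a was higher still in Gad2, at 3902 ± 1173 RPM (SD, n = 3), than in Camk2a (log2 -1.89, limma adjusted p = 4.36e-06). The lower miRNAs miR-181a and miR-130a were at 19960 and 1203 RPM in Gad2, above both Camk2a and Neocortex. miR-99a and miR-100 were low in both neuron groups, at 4572 and 976.5 RPM in Gad2, and miR-100 did not differ between them by the test (adjusted p = 0.231).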

How the data were processed

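Small RNAs of 19 to 24 nt bound to immunoprecipitated Ago2 were sequenced on an Illumina Genome Analyzer II. Per the submitters' processing notes, Bowtie and mm9 were used; no version is named there. The deposited signal is, per the file headers, scaled to 1000000 miRNA reads, but each column adds up to 10000000. Values were divided by 10 here, giving RPM. Each value was a whole number of reads times a constant per library (100% of low values, within 0.1 reads), from which reads were recovered. The main test was limma 3.58.1 in R 4.3.3 with a trend, on log2(deposited value + 1), over all 19 libraries as 7 groups, for the 522 names that reach a value of 1 in 2 or more libraries. Folds are 2 to the power of this log2 change, which understates changes of low names. Calls were made under 0.05 after Benjamini-Hochberg adjustment over all names. Count tests on the recovered reads were alternatives: edgeR 4.0.16 called 276 and DESeq2 1.42.0 called 265. Seed families were summed over names with the same bases 2 to 8 in RefSeq and fitted alike.

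Strand ratios were log2((rarer + 0.5)/(more abundant + 0.5)) of reads, by limma over the 6 libraries, for hairpins with at least 50 reads in each and a mean of at least 5 of the rarer strand. Positions come from RefSeq and GENCODE M21 on GRCm38, matched by name, and the table itself has none. Names given were called without overlap at a mean of at least 100 RPM (15 highest and 15 lowest), the 10 most abundant in Camk2a, up to 4 called members of each of 24 lists with at least 10 RPM, and the 8 and 8 families and 6 and 6 ratios of largest change. Of 118 miRNAs refitted under each alternative, 31 outside this rule were chosen after their values were seen, as were the ratios of miR-9, miR-212 and miR-485 and the abundant seed families outside those 8 and 8. The members and lists were chosen with earlier results of these data known. The tests were tried on simulated data. An exact permutation test of 3 against 3 libraries cannot go below 0.1, so none is given. The control precipitate with IgG was not analysed here.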

Additional observations from a re-analysis of the deposited data

Results flagged for a closer look

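Of the miRNAs named, 6 differed from Neocortex in opposite directions in Camk2a and in Gad2, with both differences called and the difference between Camk2a and Gad2 called as well in the same limma fit. miR-128, miR-132 and miR-27a were higher than Neocortex in Camk2a and lower in Gad2. Between Camk2a and Gad2 their log2 differences were 4.13 for miR-128 (adjusted p = 2.54e-12), 1.81 for miR-132 (1.21e-06) and 2.03 for miR-27a (8.44e-06). miR-130a, miR-181a and miR-384-5p were lower than Neocortex in Camk2a and higher in Gad2, with log2 differences between Camk2a and Gad2 of -2.15 (8.24e-08), -1.91 (9.86e-08) and -2.5 (4.16e-07). For miR-384-5p the Camk2a and Neocortex libraries overlapped, and its decrease against Neocortex was not called without Camk2a replicate 2 (0.0842), without Neocortex replicate 3 (0.0806) or in the fit of the 6 libraries alone (0.101). The Gad2 mice had another background strain and pooled tissues, whose part in these differences was not tested.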

How the results depend on the processing

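The 234 calls between Camk2a and Neocortex stood at 185 to 213 without 1 library, at 232 with TMM factors, and at 247 with a replicate block. Same-numbered libraries of the 2 groups correlated at -0.09, 0.19 and 0.26 in their deviations, so the numbers were not taken to pair them. With the replicate block, let-7b, let-7d, miR-34b-5p, miR-376c and miR-99b were not called (adjusted p = 0.0978, 0.0975, 0.0598, 0.0529 and 0.0567), nor was the strand ratio of miR-9 (0.072), while miR-146a, miR-221 and the seed of miR-221 and miR-222 were (0.00258, 0.0269 and 0.0284). Of the 309 names with a mean of at least 10 RPM, 165 were called. Seed families gave 102 to 117 calls without 1 library and 138 with the block, against 129. Strand ratios were the least stable, with 14 to 48 calls without 1 library, 30 without a minimum of the rarer strand and 59 with the replicate block, against 50; each fit without a library has fewer residual degrees of freedom. Camk2a against Gad2 gave 156 to 177 calls without 1 library and 161 with the replicate block, against 199. No named result reversed its direction among those called. Of 118 named miRNAs 86 kept their call or its absence in every alternative run, as did 26 of 29 seed families and 10 of 15 ratios. Depth limits names near 1 RPM, above all in Neocortex replicate 1.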
